A study of Mus musculus with 10 samples.

Results

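The 9 genes described here, Zfas1, Gas5, Snhg1, Snhg3, Snhg5, Snhg6, Snhg7, Snhg8 and Snhg12, are long noncoding RNA genes that carry small nucleolar RNAs (snoRNAs). They are 9 of the 50559 genes counted in each library, and were taken by symbol. The group was chosen by measured values, since the counts of Zfas1, Gas5 and Snhg7 were among the clearest increases in MYC/SMARCA4 tumors, so that the higher level in those tumors is given below as a description. Where counts of edgeR calls stand beside it, they describe the values that chose the genes, and nothing is read from them. All 9 passed the filter on low counts, and all 9 reached its cutoff in the other libraries alone.

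RNA from 10 formalin-fixed tissue samples in 3 groups was depleted of ribosomal RNA and sequenced as total RNA. The 4 MYC/SMARCA4 tumors came from granule cell precursors of Math1-creERT2::Smarca4fl/fl pups given tamoxifen on day 3, which were transduced with a lentivirus carrying murine Myc and GFP and transplanted into the cerebella of immunodeficient CD1nu/nu mice, aged 112, 96, 89 and 79 days at tissue collection for tumors 1 to 4. The 3 control samples, P7 cerebella, were whole cerebella of 7-day-old Math1-creERT2::Smarca4fl/fl mice that had received 0.4 mg tamoxifen on day 3, so the controls carry the same floxed alleles and the same Cre. The 3 SHH MB samples came from Math1-cre::Smofl/wt mice, a model of sonic hedgehog medulloblastoma, recorded at an age of 7 days. Math1 drives Cre in granule cell precursors, recombination reached a part of those cells, transplanted cells were not sorted for recombined or transduced cells, and tissue punches take in every cell type present. Age, prior culture, transplantation, host strain and the introduced Myc thus differ together between MYC/SMARCA4 tumors and both other groups. So does the extent of Smarca4 loss, and P7 cerebella also differ as tissue that is no tumor. These differences cannot be told apart. In such bulk samples, fewer cells of a type and less RNA per cell cannot be told apart either.

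The total count per library was between 5663491 and 9352109, and 3 counts corresponded to 0.307 to 0.744 CPM, counts scaled to a library total of 1000000 with TMM factors. Myc stood at 152 to 1590 CPM in the 4 tumors, at 13 to 14.3 CPM in P7 cerebella and at 33.7 to 45.7 CPM in SHH MB. Smarca4 was at 136 to 244 CPM in tumors, 221 to 282 CPM in P7 cerebella and 491 to 590 CPM in SHH MB. Its log2 fold change in tumors over P7 cerebella, -0.30 (SE 0.28, edgeR adjusted p 0.495), was not called, and counts over the whole gene do not show the floxed exons on their own. By staining, the paper found SMARCA4 protein absent from all tumor cells, and its PCR on tumor biopsies found recombined Smarca4. Tumor 1 stood apart: its Purkinje cell markers summed to 11700 CPM against 351 to 2780 CPM in tumors 2 to 4, its 9 proliferation markers to 138 CPM against 1780 to 2000 CPM, and 6.36% of its counts were mitochondrial against 2.29% to 2.94%. In P7 cerebella these 3 values were 1260 to 1410 CPM, 789 to 1050 CPM and 1.43% to 1.59%. Results that rest on tumor 1 are given with and without it.

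Genes of this kind are transcribed to be taken apart. The introns hold snoRNAs, which are trimmed out after splicing and guide modification or cleavage of ribosomal RNA, box C/D snoRNAs by directing ribose methylation and box H/ACA snoRNAs by directing pseudouridylation. The spliced exons carry no long conserved reading frame, are usually degraded by nonsense-mediated decay when ribosomes meet them, and in several hosts begin with a 5′ terminal oligopyrimidine (TOP) stretch, the cytosine-led start also found on messenger RNAs of ribosomal proteins.

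GENCODE on GRCm39 placed 17 named snoRNAs on the same strand inside these 9 genes, and 13 of them had an entry of their own in the count tables. Zfas1 (chr2:166903619-166907799, plus strand) holds Snord12, Gas5 (chr1:160861793-160866118, plus strand) holds Snord47, and Snhg12 (chr4:132035905-132038762, plus strand) holds Snora16a, Snora44, Snora61 and Snord99. The sequences below, read from GRCm39, show both classes, from hosts with larger (Snhg3, Snhg7, Zfas1, Gas5) and smaller (Snhg6) differences between tumors and P7 cerebella. Capitals mark the C box (TGATGA) and the last D box (CTGA) in box C/D snoRNAs, and the ACA triplet at the 3′ end in box H/ACA snoRNAs.
Snord12 in Zfas1, chr2:166907196-166907285, plus strand: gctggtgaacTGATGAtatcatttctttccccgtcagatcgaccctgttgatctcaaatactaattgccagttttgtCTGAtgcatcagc
Snord47 in Gas5, chr1:160865652-160865728, plus strand: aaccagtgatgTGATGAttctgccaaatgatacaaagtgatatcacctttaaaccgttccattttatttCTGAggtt
Snord87 in Snhg6, chr1:10012688-10012774, minus strand: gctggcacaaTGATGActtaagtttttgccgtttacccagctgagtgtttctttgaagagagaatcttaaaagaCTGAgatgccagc
Snora17 in Snhg7, chr2:26529202-26529333, minus strand: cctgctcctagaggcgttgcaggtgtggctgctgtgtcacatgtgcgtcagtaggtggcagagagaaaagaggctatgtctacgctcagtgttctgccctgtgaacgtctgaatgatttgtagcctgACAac
Snora73a in Snhg3, chr4:132080086-132080290, minus strand: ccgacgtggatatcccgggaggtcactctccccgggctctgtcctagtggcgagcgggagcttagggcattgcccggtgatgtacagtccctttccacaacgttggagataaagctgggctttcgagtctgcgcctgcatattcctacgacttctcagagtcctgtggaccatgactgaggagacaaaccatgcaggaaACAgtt
Snora73a and its neighbour in Snhg3, Snora73b, are both 205 bases long and identical at 198 positions (96.6%), so reads may have been split between them.

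RefSeq's promoter table matched 8 of the 9 hosts, Gas5 with 2 starts. Of these 9 windows, 6 held a C followed by 4 or more pyrimidines that began within 10 bases of the annotated start on the coding strand, a pattern that 30.7% of all 32851 promoters in the table held. TATAAA beginning 40 to 20 bases before the start was present in 3 windows, those of Snhg5, Snhg7 and Snhg8, and in 1.99% of all promoters. The palindrome CACGTG, searched over all 300 bases and the same on both strands, was in none of the 9 windows and in 7.15% of all promoters. Among 73 promoters of ribosomal protein genes, 56.2% held the pyrimidine run and 0 held TATAAA. A match to these letters describes the sequence and is not evidence of use. The 70 bases around the start, 40 before it and 30 from it, are shown for the hosts with a run and for Zfas1, in which none was found. Capitals mark the pyrimidine run and TATAAA. The bases are RefSeq's for GRCm38.p6, and the positions are those of the identical stretch in GRCm39.
Gas5, downstream start, chr1:160862696-160862765, plus strand: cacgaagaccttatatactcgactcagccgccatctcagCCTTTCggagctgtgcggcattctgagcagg
Snhg7, chr2:26530227-26530296, minus strand: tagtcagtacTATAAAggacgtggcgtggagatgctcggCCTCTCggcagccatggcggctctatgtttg
Snhg8, chr3:123301956-123302025, minus strand: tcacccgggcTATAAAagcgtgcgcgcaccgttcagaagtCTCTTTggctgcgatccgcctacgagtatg
Snhg12, chr4:132035949-132036018, plus strand: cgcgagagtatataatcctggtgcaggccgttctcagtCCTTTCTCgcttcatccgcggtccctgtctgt
Snhg5, chr9:88404921-88404990, minus strand: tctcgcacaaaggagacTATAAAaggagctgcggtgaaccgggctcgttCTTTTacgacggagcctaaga
Snhg3, chr4:132080968-132081037, minus strand: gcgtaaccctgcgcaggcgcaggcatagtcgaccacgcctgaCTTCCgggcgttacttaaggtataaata
Zfas1, chr2:166904814-166904883, plus strand: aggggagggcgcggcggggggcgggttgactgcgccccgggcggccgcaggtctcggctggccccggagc

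The comparison of MYC/SMARCA4 tumors with P7 cerebella sets the tumors beside tissue of the region and lineage they were made from. All 9 hosts had higher levels in every tumor than in every P7 cerebellum, a separation that 10.3% of the 29952 genes tested also had in that direction. At an adjusted p of at most 0.05 in edgeR's quasi-likelihood test, 8 of the 9 were called higher, beside 3.99% of all genes. These counts follow from how the genes were taken. The median log2 fold change of the 9 was 1.92, with a range from 0.94 to 2.47, and that of all genes tested was -0.05.

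**Figure D1:**
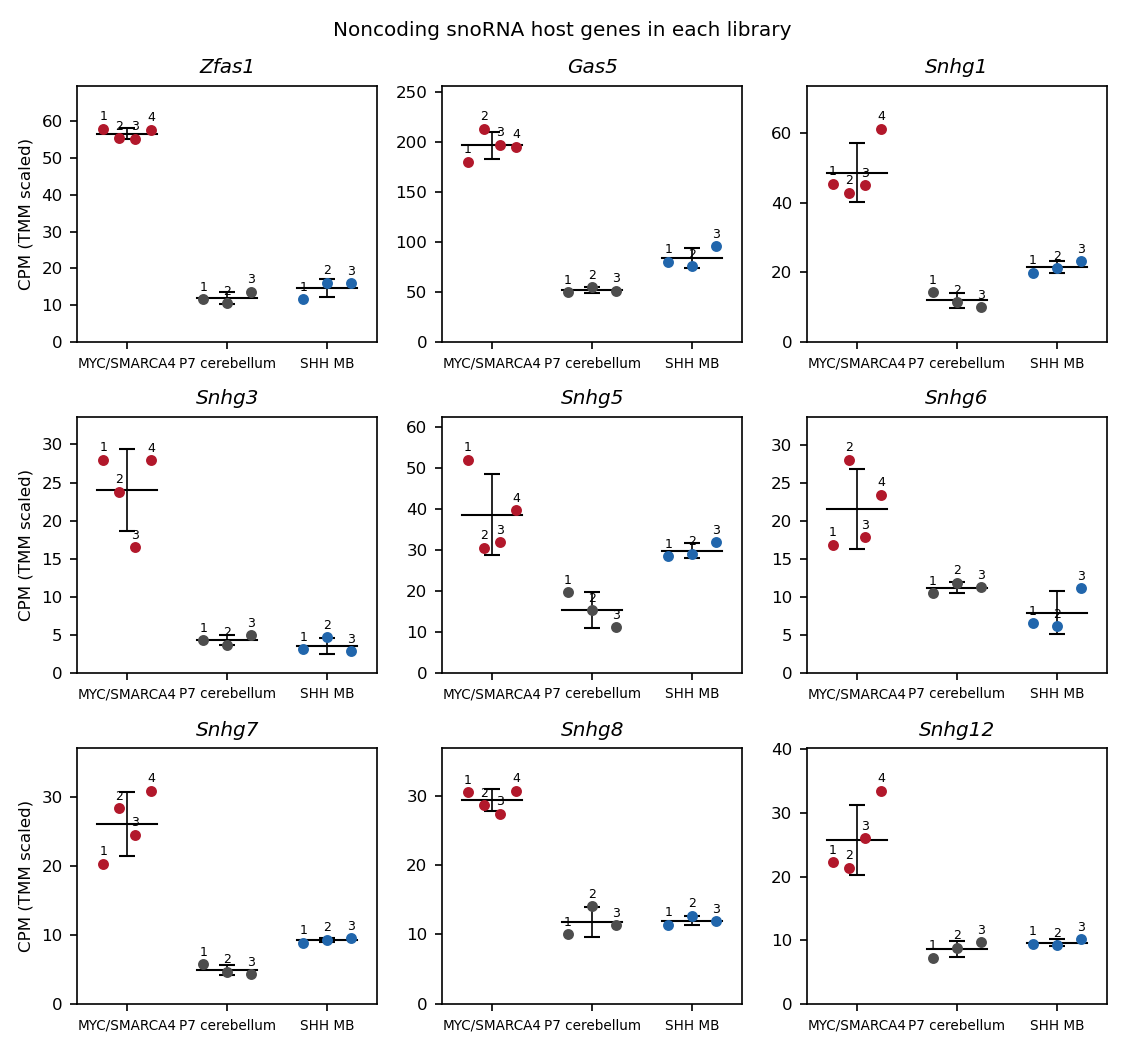
Level of each host gene in every library, in CPM, by group; points are libraries numbered by replicate, horizontal lines are group means and bars are SD. The 4 MYC/SMARCA4 tumors lie above all 3 P7 cerebella for every gene, and above all 3 SHH MB samples for every gene except Snhg5.

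Zfas1 lies head to head with Znfx1 on the opposite strand. Among the hosts of box C/D snoRNAs, it had the most even TMM-scaled level across tumors. It stood at 58.0, 55.4, 55.3 and 57.7 CPM in tumors 1 to 4, at 11.6, 10.5 and 13.7 CPM in P7 cerebella and at 11.7, 16.1 and 15.9 CPM in SHH MB. The tumors held a mean of 56.6 CPM ± 1.45 (SD, n = 4), and the other 2 groups overlapped each other. The log2 fold change was 2.24 (SE 0.25) over P7 cerebella and 1.95 (SE 0.24) over SHH MB, that is 4.74-fold and 3.88-fold.

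Gas5, named for its rise in growth-arrested cells and with Snhg1 the host of the most snoRNA entries, 8 each, was at 180, 213, 197 and 195 CPM in tumors 1 to 4. Its level was 49.4, 54.9 and 51.2 CPM in P7 cerebella and 80.1, 75.8 and 95.3 CPM in SHH MB. The 3 groups did not overlap, and SHH MB lay between the other two. Gas5 was 3.79-fold higher in tumors than in P7 cerebella (log2 fold change 1.92, SE 0.24) and 2.35-fold higher than in SHH MB (1.23, SE 0.23). It gave 37.2% to 45.1% of the counts of the 9 hosts in each of the 10 libraries.

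Snhg1, host of Snord22, showed the same order of groups. It was at 45.4, 42.8, 44.9 and 61.2 CPM in tumors, 14.3, 11.4 and 9.99 CPM in P7 cerebella and 19.9, 21.2 and 23.2 CPM in SHH MB. Tumor 4 lay above the other tumors, and no groups overlapped. The log2 fold change of Snhg1 was 2.03 (SE 0.26) over P7 cerebella and 1.18 (SE 0.25) over SHH MB.

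Snhg5, host of Snord50a and Snord50b, was the exception in the comparison with SHH MB. Tumors 1 to 4 had 52.1, 30.6, 32.0 and 39.8 CPM, P7 cerebella had 19.8, 15.3 and 11.1 CPM, and SHH MB had 28.5, 29.1 and 32.0 CPM. Tumors 2 and 3 were thus level with SHH MB, and both tumor types were above every P7 cerebellum. The log2 fold change was 1.32 (SE 0.29) over P7 cerebella and 0.37 (SE 0.28) over SHH MB, where Snhg5 was the host not called.

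Snhg6, host of Snord87, was the weakest of the 9 against P7 cerebella. It was at 16.9, 28.1, 17.9 and 23.5 CPM in tumors, 10.5, 11.9 and 11.3 CPM in P7 cerebella and 6.53, 6.13 and 11.2 CPM in SHH MB. Tumors were above both other groups, which overlapped. A log2 fold change of 0.94 (SE 0.31) over P7 cerebella was not called, and one of 1.44 (SE 0.32) over SHH MB was called. Of 18 alternatives, 2 called Snhg6 over P7 cerebella and 9 called it over SHH MB.

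Of the hosts of box H/ACA snoRNAs, Snhg3 carries Snora73a and Snora73b, also known as U17, an RNA needed for cleavage of the ribosomal RNA precursor. Its level was 28, 23.8, 16.5 and 27.9 CPM in tumors, 4.29, 3.71 and 4.99 CPM in P7 cerebella and 3.11, 4.71 and 2.84 CPM in SHH MB. Tumors exceeded both other groups, and P7 cerebella and SHH MB overlapped. The changes, 2.47 (SE 0.33) over P7 cerebella and 2.74 (SE 0.34) over SHH MB on the log2 scale, were the highest of the 9 in both comparisons. Snhg3 overlaps Rcc1 on the same strand, so reads in shared bases may not have been assigned to either.

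Snhg7, host of Snora17 and Snora43, was at 20.3, 28.4, 24.5 and 30.9 CPM in tumors, at 5.72, 4.69 and 4.28 CPM in P7 cerebella and at 8.87, 9.31 and 9.52 CPM in SHH MB. No groups overlapped, and SHH MB lay between. The fold over P7 cerebella was 5.29 (log2 2.40, SE 0.28) and that over SHH MB was 2.82 (log2 1.5, SE 0.27).

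Snhg8, host of Snora24, had 30.5, 28.6, 27.4 and 30.7 CPM in tumors, 10, 14.1 and 11.3 CPM in P7 cerebella and 11.4, 12.7 and 11.9 CPM in SHH MB. It was close to Zfas1 in evenness across tumors, with 29.3 CPM ± 1.58 (SD, n = 4), and did not differ between the other 2 groups beyond their spread. Its log2 fold change was 1.31 (SE 0.24) over P7 cerebella and 1.29 (SE 0.24) over SHH MB.

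Snhg12 carries snoRNAs of both classes. Tumors 1 to 4 were at 22.3, 21.4, 26.0 and 33.5 CPM, P7 cerebella at 7.25, 8.84 and 9.7 CPM and SHH MB at 9.49, 9.19 and 10.2 CPM. All 4 tumors were above the other libraries, which overlapped. Log2 fold changes of 1.59 (SE 0.27) and 1.42 (SE 0.27) were measured over P7 cerebella and over SHH MB.

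**Figure D2:**
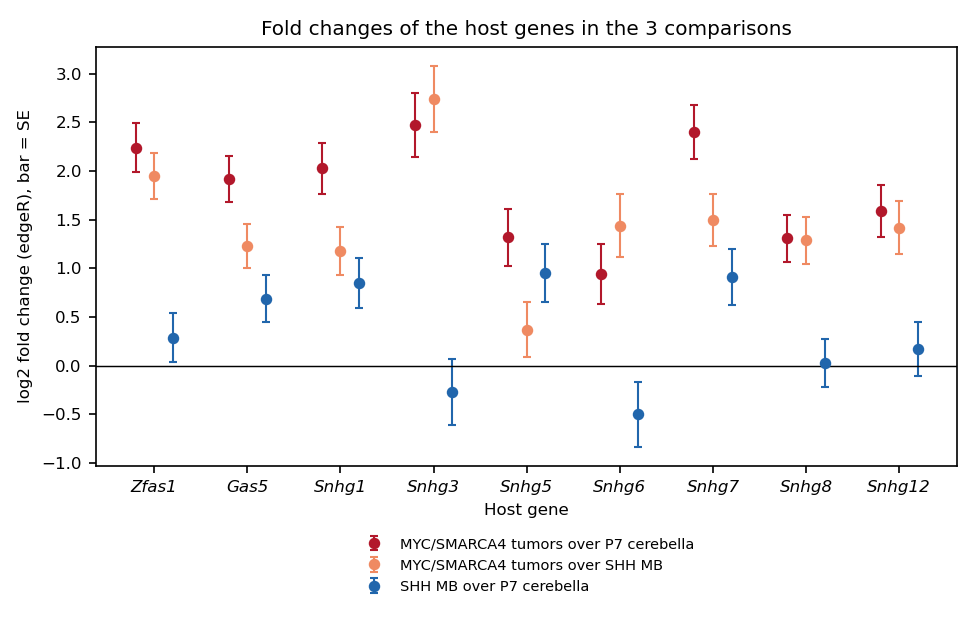
Log2 fold changes of the 9 host genes from edgeR in the 3 comparisons, with bars of 1 SE. Zfas1, Snhg3, Snhg8 and Snhg12 lie at similar heights over P7 cerebella and over SHH MB, whereas Snhg5 is at 1.32 over P7 cerebella, 0.37 over SHH MB and 0.95 for SHH MB over P7 cerebella.

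Against SHH MB, a tumor of the same lineage with another driver, 8 of the 9 hosts were above every SHH MB sample in all 4 tumors, beside 7.83% of all genes, and 8 of 9 were called higher, beside 2.43%. The median log2 fold change was 1.42, with a range from 0.37 for Snhg5 to 2.74 for Snhg3, and that of all genes was 0.01. The tumor libraries are the same ones as in the comparison with P7 cerebella, so these values are not a separate observation of the tumors. When only the 2 groups compared were fitted, 5 hosts were called against P7 cerebella, beside 0.206% of all genes, and 3 against SHH MB, beside 0.337%. Without tumor 1, all 9 hosts were called against P7 cerebella (11.1% of all genes were called higher in that fit) and 8 against SHH MB (5.91%). Leaving out any of the P7 cerebella left 5 calls against P7 cerebella, and leaving out SHH MB replicate 1, 2 or 3 left 2, 2 or 3 calls against SHH MB. The shares of all genes called in those fits are not given here, so nothing is read from these counts.

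SHH MB and P7 cerebella can be compared by a test, since the choice of genes did not use that contrast. The libraries of both groups are however shared with the comparisons of the tumors, so the test is not fully separate from the choice. None of the 9 hosts was called by edgeR in the fit of all 10 libraries, beside 0.224% of all genes, and none by DESeq2 or by limma. Gas5, Snhg1, Snhg5 and Snhg7 had an unadjusted p under 0.05, which 8.8% of all genes had. These 4 were also higher in every SHH MB sample than in every P7 cerebellum, a separation in that direction seen in 17.8% of all genes. Their log2 fold changes were 0.69 (SE 0.24), 0.85 (SE 0.26), 0.95 (SE 0.30) and 0.91 (SE 0.29) in that order, with adjusted p from edgeR of 0.41, 0.349, 0.36 and 0.356.

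Whether Gas5, Snhg1, Snhg5 and Snhg7 were called differed with the libraries fitted, and the cause was not tested. When only the 6 libraries of SHH MB and P7 cerebella were fitted, without the varied tumors, all 4 were called higher, with adjusted p from edgeR of 9.32e-05 for Gas5, 0.000859 for Snhg1, 0.00021 for Snhg5 and 0.00698 for Snhg7, beside 13.4% of all genes. Leaving out tumor 1 alone brought 1 call, Snhg5 at an edgeR adjusted p of 0.0456, beside 2.3% of all genes. The other 5 hosts were not called in either fit. In the fit of all libraries, log2 fold changes of SHH MB over P7 cerebella were 0.29 (SE 0.25) for Zfas1, -0.27 (SE 0.34) for Snhg3, -0.50 (SE 0.33) for Snhg6, 0.03 (SE 0.25) for Snhg8 and 0.17 (SE 0.28) for Snhg12.

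The summed level of the 9 hosts, scaled by TMM, was 454, 472, 442 and 500 CPM in tumors 1 to 4. It was 133, 135 and 128 CPM in P7 cerebella and 180, 184 and 212 CPM in SHH MB. The TMM factors of tumors 1 to 4 were 0.619, 0.802, 1.28 and 0.881. Their host counts before scaling were 1830, 2625, 3158 and 4103, of total counts of 6547245, 6945005, 5663491 and 9352109. No fit without such factors was run, so evenness between tumors holds only on this scale. The median SD of log2 CPM over the 4 tumors was 0.26 for the 9 hosts, with a range from 0.04 for Zfas1 to 0.35 for Snhg3 and Snhg5. Over 10959 genes of similar mean level it was 0.59, with quartiles at 0.38 and 0.92. The choice of clear increases in these same tumor libraries favours genes of low spread between them, so this difference is a description only. Tumors did not follow a common order: tumor 1 was the highest for Zfas1, Snhg3 and Snhg5 and the lowest for Gas5, Snhg6 and Snhg7. Single hosts differed by up to 1.7 times between tumors. Myc ranged from 152 CPM in tumor 1 through 368 and 1020 CPM in tumors 2 and 4 to 1590 CPM in tumor 3. Proliferation and Purkinje cell markers differed as given above, and whether host levels follow any of these was not tested.

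Of the gene groups tied to the same machinery, other noncoding hosts were also high in tumor 1, with median log2 differences from the P7 mean of 1.57, 1.15, 1.37 and 1.61 in tumors 1 to 4, whereas ribosomal protein genes were not. Of the 77 ribosomal protein genes tested, 75 had higher fitted levels in tumors than in P7 cerebella, with a median log2 fold change of 1.05, and 7 were called. By library, their median log2 difference from the P7 mean was -0.46 in tumor 1 and 1.35, 1.34 and 1.16 in tumors 2 to 4. The same difference for the 9 hosts was 1.79, 1.84, 1.87 and 1.94. The hosts were chosen for increases in these same tumors, which favours a high level in each of them. Their contrast with the other lists is thus a description only. Rpl4, a ribosomal protein of the large subunit, was at 314 CPM in tumor 1, below the 365 to 389 CPM of P7 cerebella, and at 1340, 1580 and 1390 CPM in tumors 2 to 4. Without tumor 1, 75 of the 77 ribosomal protein genes were called higher against P7 cerebella and 74 against SHH MB, beside 11.1% and 5.91% of all genes. The same shares stand beside the counts without tumor 1 of the lists below. Beside counts from the fits of 2 groups stand 0.206% over P7 cerebella and 0.337% over SHH MB. For fits without a P7 or SHH MB library such shares are not given, so nothing is read from their counts. No ribosomal protein gene was called by edgeR against P7 cerebella without any 1 of the P7 or SHH MB libraries, or against SHH MB without any 1 of the SHH MB libraries, and the fits of 2 groups called 0 in both comparisons.

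**Figure D3:**
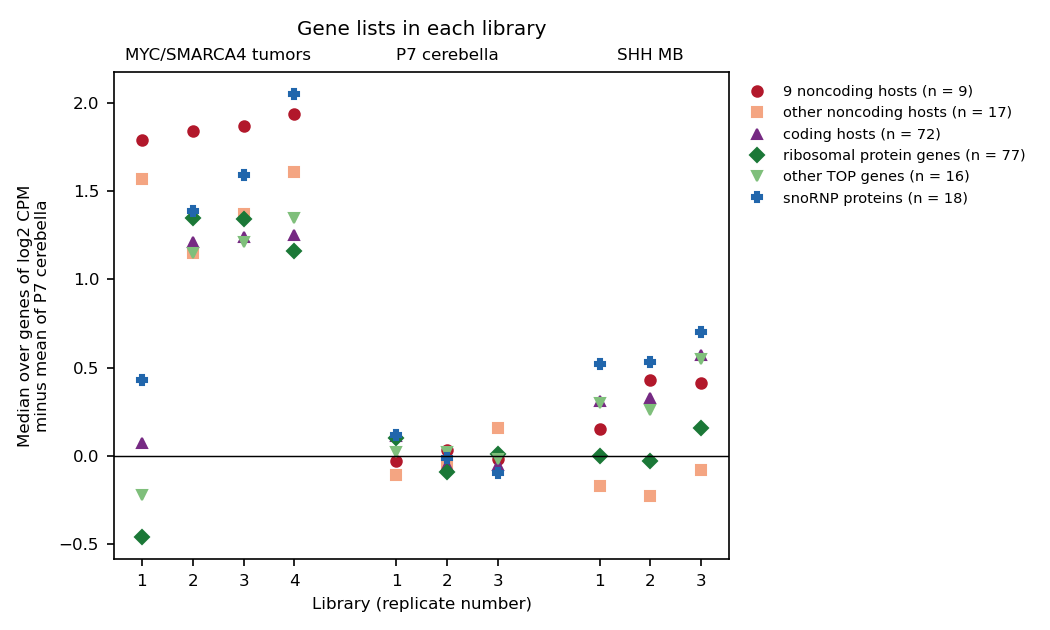
Median over the tested genes of each list of log2 CPM minus the gene's mean in P7 cerebella, for every library. The 9 noncoding hosts lie between 1.79 and 1.94 in all 4 tumors, whereas ribosomal protein genes lie at -0.46 and other TOP genes at -0.22 in tumor 1 and above 1.1 in tumors 2 to 4. The hosts were chosen for increases in these same tumors, so their contrast with the other lists is a description only.

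The 16 other coding genes with a TOP start, mostly translation factors, followed the ribosomal proteins: all 16 had higher fitted levels than in P7 cerebella, with a median of 1.02, and 5 were called, while the median was -0.22 in tumor 1 and 1.15, 1.21 and 1.35 in tumors 2 to 4. Eef1a1, the translation elongation factor, was at 338 CPM in tumor 1, 1740 to 2170 CPM in tumors 2 to 4 and 702 to 865 CPM in P7 cerebella. Without tumor 1, 14 of the 16 were called, against 0 without any 1 of the P7 libraries and 0 in the fit of 2 groups. Against SHH MB the median was 0.57, and 0 of the 16 were called with edgeR in all libraries and 8 without tumor 1.

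Proteins that bind or assemble snoRNAs were higher as well. Of 18 such genes, all had higher fitted levels in tumors than in P7 cerebella, with a median log2 fold change of 1.46, and 9 were called. Nop58 and Nop56, core proteins of box C/D particles, had log2 fold changes of 1.88 (SE 0.34) and 1.58 (SE 0.28), and Nolc1, a nucleolar chaperone of both classes, had 1.99 (SE 0.41). Nop58 was at 62.7 CPM in tumor 1, 138, 144 and 176 CPM in tumors 2 to 4 and 28.2 to 42.9 CPM in P7 cerebella, so that tumor 1 lay nearest to the controls. Against SHH MB the median was 0.86 and 0 were called with edgeR in all libraries, while 13 were called without tumor 1. Over P7 cerebella, 14 were called without tumor 1, 1, 1 and 0 without P7 replicates 1, 2 and 3, and 0 in the fit of 2 groups. The 15 genes of nonsense-mediated decay, the pathway that degrades spliced host RNA, had medians of 0.65 over P7 cerebella and 0.34 over SHH MB, with 1 and 0 called, and without tumor 1 with 4 and 0 called.

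Other snoRNA hosts were set beside the 9. The remaining 17 noncoding hosts all had higher fitted levels in tumors in both comparisons, with medians of 1.43 over P7 cerebella and 1.43 over SHH MB and with 9 and 5 called. Without tumor 1, 15 of the 17 were higher than in P7 cerebella, with 9 called in each comparison. Without a P7 library 2 to 4 were called over P7 cerebella, without an SHH MB library 2 were called over SHH MB, and the fits of 2 groups called 4 and 2. Those with the highest counts varied between tumors: Snhg11, a brain-expressed RNA, was at 2810, 415, 39.6 and 357 CPM in tumors 1 to 4 and at 202 to 257 CPM in P7 cerebella, and Snhg14, which spans the Prader-Willi region's snoRNA clusters, was at 843, 223, 29.8 and 200 CPM. These 2 genes had their highest level in tumor 1 and their lowest in tumor 3, as did the Purkinje cell and mature granule neuron marker sums, 7770, 3390, 444 and 2030 CPM for the latter. The part of other cell types in these levels was not tested.

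Of 73 coding hosts, 72 were tested and 69 had higher fitted levels than in P7 cerebella, with a median log2 fold change of 1.01. Of these, 19 were called higher and 1 lower. The list shares 23 genes with the ribosomal proteins and 4 with the other TOP genes, and its median by library was 0.07 in tumor 1 and 1.21, 1.24 and 1.25 in tumors 2 to 4. Without tumor 1, 51 coding hosts were called higher and 1 lower, while 3, 1 and 2 were called higher without P7 replicates 1, 2 and 3, and 2 in the fit of 2 groups. Among 7087 other long noncoding RNA genes tested, the median log2 fold change was -0.61 over P7 cerebella, with 72 called higher and 127 lower, and -0.39 over SHH MB, with 39 and 162. By library, their median difference from the P7 mean was -0.86, -1.55, 0.12 and -0.79 in tumors 1 to 4, so that tumor 3 stood apart.

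Coding genes next to the hosts were described in the same way. For each host the coding gene with the nearest annotated start was taken, and these 9 neighbours had medians of 0.41 over P7 cerebella and 0.42 over SHH MB, with 0 and 1 called by edgeR in all libraries and 1 and 2 without tumor 1. Zbtb37, a zinc finger gene whose start lies 626 bases from that of Gas5 on the opposite strand, had log2 fold changes of 0.04 (SE 0.26) and -0.26 (SE 0.25). Znfx1, whose start is 1349 bases from that of Zfas1, had 0.41 (SE 0.28) and 0.42 (SE 0.28), and Slc3a2, the amino acid transporter subunit gene 789 bases from Snhg1, had 0.68 (SE 0.25) and 0.44 (SE 0.25). Rcc1, which starts 46 bases from Snhg3 on the same strand and regulates nuclear transport, had 1.46 (SE 0.51) and 0.50 (SE 0.49). Its levels in tumors 1 to 4 were 9.42, 58.3, 56.7 and 88.3 CPM against 18.9 to 19.9 CPM in P7 cerebella, so that tumor 1 was low for Rcc1 and high for Snhg3. Dipk1b, near Snhg7, was the neighbour called against SHH MB, at 1.68 (SE 0.35). The count tables were not stated to use strand, and Zfas1, Gas5 and Snhg1 overlap these neighbours on the opposite strand, so their reads in shared bases cannot be told apart.

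The tested snoRNAs inside the hosts were higher in tumors too, but far less evenly. Of the 13 named entries, 12 had enough counts to be tested, 11 of them also without the tumors, and Snora24 in Snhg8 had 0 counts in every library. All 12 had higher fitted levels in tumors than in P7 cerebella and in SHH MB, with median log2 fold changes of 3.06 and 2.12 and with 10 and 5 called, beside 3.99% and 2.43% of all genes. RefSeq places 31 snoRNA entries in the hosts, a list added after the values were seen. The 2 entries in Snhg5 had too few counts to be tested and were not higher in tumors. Summed, they had 2, 1, 0 and 0 counts in tumors 1 to 4 and 5, 5 and 11 in P7 cerebella. Of the 31 entries 28 were tested, 23 of which reached the cutoff without the tumors, with medians of 2.74 and 1.64 and with 22 and 7 called. For 24 of these 28 the log2 fold change over P7 cerebella exceeded that of the host, with a median difference over all 28 of 0.70. Over SHH MB this held for 21 of 28 (0.28), and for SHH MB over P7 cerebella for 22 of 28 (0.40). Entries that reached the cutoff only with the tumors are among the 12 and the 28, which favours higher values in tumors. The medians, calls and differences of both lists are thus a description only. Without tumor 1 the medians of the 12 named entries were 2.62 and 1.71, with 11 and 5 called. Over P7 cerebella, 0, 0 and 3 were called by edgeR without P7 replicates 1, 2 and 3. Over SHH MB, 0 were called without any 1 of the SHH MB libraries. The fits of 2 groups called 2 and 0, beside 0.206% and 0.337% of all genes. Shares of all genes in fits without 1 control library are not given here, so nothing is read from those counts. With 1 library left out, the median was 2.62 to 3.36 over P7 cerebella and 1.71 to 2.35 over SHH MB.

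Snora73a, in Snhg3, had the most counts over all libraries, 5431 against 5186 for Snora73b, whose mean in tumors was higher (242 CPM against 230 CPM). It was at 625, 168, 48.1 and 80.3 CPM in tumors 1 to 4, at 38.3, 17.1 and 18.4 CPM in P7 cerebella and at 13.5, 18.6 and 10.1 CPM in SHH MB. The tumors were above both groups and spread widely among themselves, while the highest tumor had 1.7 times the lowest for Snhg3. Together with Snora73b it made 86.1% of the counts of the 13 named entries in tumor 1 and 56.9% to 68.9% in tumors 2 to 4.

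Snord12, in Zfas1, was at 10.9, 6.84, 4.76 and 5.73 CPM in tumors, at 0.92, 0.0 and 1.71 CPM in P7 cerebella and at 1.4, 2.83 and 0.71 CPM in SHH MB, the values outside the tumors resting on 0 to 24 counts. Snord47, in Gas5, was at 17.6, 11.3, 3.92 and 5.24 CPM in tumors and at 1.43, 1.31 and 0.428 CPM in P7 cerebella. Both were above every P7 cerebellum, and tumor 1 was the highest for each. Log2 fold changes over P7 cerebella were 3.02 (SE 0.81) for Snord12 and 3.10 (SE 0.64) for Snord47.

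Snora17, in Snhg7, was at 19.3, 16.7, 8.82 and 9.76 CPM in tumors, at 2.66, 2.29 and 0.285 CPM in P7 cerebella and at 4.51, 3.89 and 4.12 CPM in SHH MB. The 3 groups did not overlap. Snord87, in Snhg6, was at 13.1, 6.84, 2.1 and 2.44 CPM in tumors and at or under 0.92 CPM in P7 cerebella, with a log2 fold change of 3.39 (SE 0.78), although Snhg6 itself was at 0.94 (SE 0.31). Snord22, in Snhg1, was at 84.8, 47.7, 19.7 and 17.1 CPM in tumors and at 6.11 to 9.56 CPM in P7 cerebella. Snora61, in Snhg12, was at 22.3, 13.5, 5.6 and 10.9 CPM in tumors and at 0.328 to 2.43 CPM in P7 cerebella. In each of these named entries, tumors 1 and 2 were above tumors 3 and 4. Not all other entries in the hosts had this order. Snora43, also in Snhg7, was at 2.23, 8.82, 3.08 and 5.49 CPM in tumors 1 to 4. An unnamed entry in Gas5, LOC115487677, was at 3.97, 9.36, 7.14 and 11.6 CPM, so that tumor 1 was the lowest for both.

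**Figure D4:**
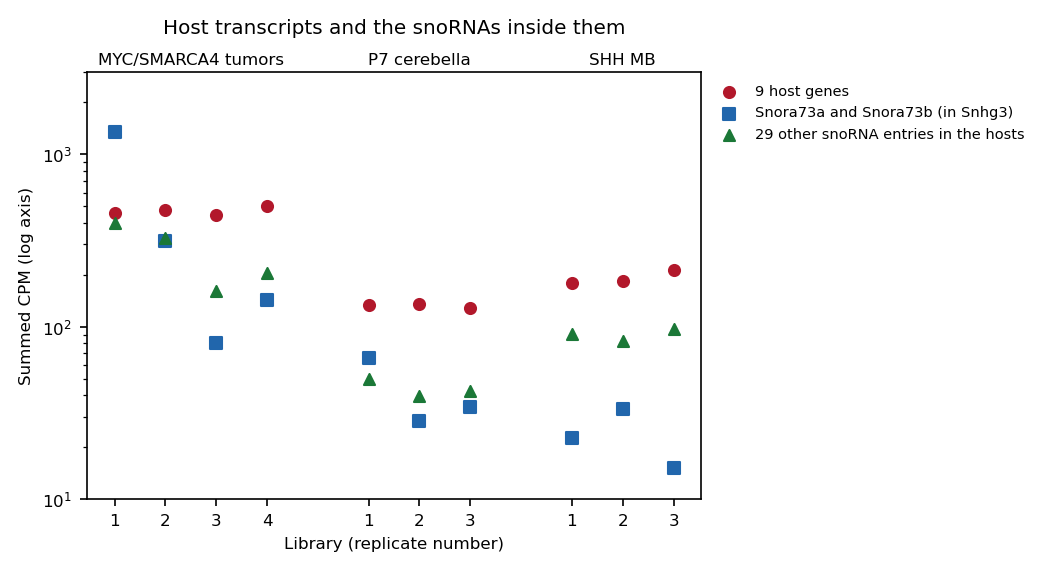
Summed level, in CPM on a log axis, of the 9 host genes, of Snora73a and Snora73b and of the 29 other snoRNA entries inside the hosts, for every library. The hosts lie between 442 and 500 CPM in all 4 tumors, whereas Snora73a and Snora73b sum to 1350 CPM in tumor 1 and 79.9 CPM in tumor 3.

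Summed over the 29 entries other than Snora73a and Snora73b, the level was 401, 325, 162 and 205 CPM in tumors 1 to 4, 39.8 to 50 CPM in P7 cerebella and 82.8 to 96.7 CPM in SHH MB. The 3 groups did not overlap, with SHH MB between the others. Counts of the 13 named snoRNA entries were 346% of the host counts in tumor 1, 97.1%, 31.8% and 43.1% in tumors 2 to 4, 31.3% to 64.1% in P7 cerebella and 22.6% to 37.0% in SHH MB. The share of counts from mitochondrial genes was also highest in tumor 1, and counts that resemble ribosomal RNA or Lars2 made 1.01%, 0.655%, 0.51% and 0.288% of tumors 1 to 4. Their part in the snoRNA values was not tested. Most of these snoRNAs also lie in an exon of some host isoform, so reads there may have been counted for either gene or for none.

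Genes whose profile over the 10 libraries came nearest to the mean profile of the 9 hosts were Mbnl1, Prmt7, 2410006H16Rik, Rabggtb and Jade1. The root mean square difference of centred log2 CPM was 0.143, 0.145, 0.157, 0.16 and 0.163 in that order, and the median over 29943 genes was 1.08. Rabggtb and 2410006H16Rik are themselves snoRNA hosts, coding and noncoding. Rabggtb was at 74.4, 86.2, 54.7 and 82.2 CPM in tumors, 22.1 to 24.9 CPM in P7 cerebella and 26.4 to 31.1 CPM in SHH MB. 2410006H16Rik was at 42.1, 46.4, 41.0 and 50.3 CPM in tumors and 14.3 to 17.5 CPM in P7 cerebella. Mbnl1, a splicing regulator, was at 237 to 336 CPM in tumors, above the 85.3 to 104 CPM of P7 cerebella and the 102 to 137 CPM of SHH MB. These genes were picked for their likeness, which is a description over 10 libraries.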

How the data were processed

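The authors isolated RNA from formalin-fixed tissue, depleted ribosomal RNA and made CORALL total RNA libraries. Per the submitters' processing notes, reads passed FastQC 0.73, Trimmomatic 0.38.1, STAR 2.7.8a on GRCm39, featureCounts 2.0.1 and DESeq2 2.11.40.7. The annotation and the strand setting are not given in the sources used here, nor whether molecular identifiers were used. The deposited tables of the 10 libraries hold raw counts for 50559 gene symbols, with no normalization. The deposited table of the series holds variance-stabilised values on a log2 scale for 46123 genes, used for limma only. The authors' own comparisons were not used. Samples were grouped by title.

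Counts were fitted with edgeR 4.0.16 (R 4.3.3; glmQLFit and glmQLFTest, TMM factors, filterByExpr), with 10 libraries in 3 groups, no covariates and Benjamini-Hochberg adjustment over 29952 genes; a gene was called at an adjusted p of at most 0.05. SE is the log2 fold change divided by the root of F. CPM are scaled by TMM, and log2 CPM used a prior count of 2. P-values measure the spread between the numbered samples. Counting error alone sets the floor of 3 counts. On counts simulated for tumors against P7 cerebella, with 200 genes changed by 2 on the log2 scale, edgeR recovered 64% with 4 false calls over 28108 genes. On the same counts over 29952 genes DESeq2 1.42.0 recovered 86% with 38 false calls and limma 3.58.1 recovered 27% with 1. Each simulated gene had the same spread in all groups, whereas the measured tumors differed more among themselves than the other samples did. These rates thus need not hold for the measured counts.

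Places and hosted snoRNAs were taken from GENCODE vM39 on GRCm39 by symbol (40303 of 50559 symbols matched), gene types from RefSeq (48908 matched). Named genes are the 9 hosts, the hosted snoRNA with the most counts in each, the nearest coding neighbour, the 3 genes of each other list with the highest mean log2 CPM, Myc, Mycn, Smarca4 and the 5 nearest profiles. Others named were chosen after their values were seen. The host genes and the lists were chosen with earlier results of these data known. Alternatives were RLE factors, DESeq2, limma, 2 other count filters, fits of 2 groups, a replicate block, other library sizes, a prior count of 0.5 and leaving out each library. Same-numbered libraries had deviations from their group means that correlated at -0.176 to 0.13, so the numbers do not pair the samples. Single genes of nonsense-mediated decay were left out of the check for far samples and are not reported here.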

Additional observations from a re-analysis of the deposited data

Results flagged for a closer look

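Among 46 genes checked across the 4 tumors, 5 had a tumor whose distance to its nearest neighbour exceeded the share of the range that Dixon's 95% critical value of 0.829 allows. Shares were taken on log2 CPM. Chance gives about 1 in 20 such genes. Of the hosts, this held for Snhg1, with tumor 4 at 61.2 CPM (log2 CPM 5.94) and a share of 0.839. Tumor 1 was the low library for Prss12, the neighbour of Snhg8 (0.85), for Eef2 (0.848), Rpl4 (0.902) and Eef1a1 (0.882).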

How the results depend on the processing

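Median differences of tumors over P7 cerebella and over SHH MB kept their direction for the 9 hosts and the hosted snoRNAs under the alternatives run, whereas for SHH MB over P7 cerebella the medians of hosted snoRNAs, other noncoding hosts, neighbours and ribosomal protein genes and the value of Snhg8 (0.03, and -0.07 without P7 replicate 1) changed sign under at least 1 of them. For the 9 hosts, the median log2 fold change over P7 cerebella was 1.67 with at least 10 counts required in every library and 1.77 to 1.98 when 1 library was left out, where 5 to 9 hosts were called. Fitting only the 2 groups compared gave 5 calls, beside 0.206% of all genes. Over SHH MB the median was 1.28 with limma, 1.25 with at least 10 counts and 1.23 to 1.47 with 1 library left out. With 1 library left out 2 to 8 were called, and with only 2 groups 3 were called, beside 0.337% of all genes. For SHH MB over P7 cerebella, 4 were called with only 2 groups, beside 13.4% of all genes. With 1 library left out 0 to 1 were called, with medians of 0.22 to 0.46. For fits without 1 library, shares of all genes are given above for tumor 1 only. A replicate block gave 5 calls over P7 cerebella, 2 over SHH MB (median 1.27) and 0 between the other groups. The replicate numbers do not pair the samples.

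With at least 10 counts in every library, 3 hosted snoRNAs could be tested, with medians of 3.70 over SHH MB and -0.86 for SHH MB over P7 cerebella (0.85 for all 12), and the latter ranged from 0.42 to 0.93 with 1 library left out. Other noncoding hosts had 0.95 over SHH MB with limma, and for SHH MB over P7 cerebella -0.05 with at least 10 counts and -0.23 to 0.01 with 1 library left out. Neighbours had 0.15 over SHH MB with limma, 0.22 with at least 10 counts, 0.30 with the replicate block and 0.24 to 0.43 with 1 library left out, and 0.10 to 0.46 over P7 cerebella. Genes of nonsense-mediated decay had 0.37 over P7 cerebella with at least 10 counts and 0.09 to 0.34 over SHH MB with 1 library left out. The filter of at least 10 counts moved the median of all genes by -0.28 over P7 cerebella and -0.20 over SHH MB, and leaving out tumor 3 by -0.16 and -0.14. Where a value moved, the cause was not tested. Depth limits the snoRNAs most, several of which had under 10 counts in single libraries outside the tumors.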
